A study of Macaca mulatta with 16 samples.

Results

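The lung RNA of 7 of 16 rhesus macaque fetuses (Macaca mulatta) was compared here at 2 times after the same exposure: 4 fetuses delivered 16 h after LPS and 3 delivered 5 d after LPS. They were chosen by their labels, as the animals given LPS at 1 mg into the amniotic fluid with no second treatment. LPS, the lipopolysaccharide of the Gram-negative bacterial outer membrane, was used in the study to model inflammation in the womb. The study sequenced poly(A) RNA from the fetal lungs of 5 groups of pregnancies, and the 2 groups not compared here, term controls and animals given Beta-Ac (betamethasone acetate) besides LPS, enter through the shared estimate of the spread, the filter on low counts and the scaling. The 4 LPS 16h animals (026, 029, 035 and 038) were treated at 129 to 130 days of gestation and delivered at 130 to 131 days. The 3 LPS 5d animals (239, 240 and 242) were treated at 126 to 129 days and delivered at 131 to 134 days. The baseline was 4 preterm controls (092, 101, 113 and 209), which had no intervention and were delivered at 131 to 135 days, and so had no injection either. Each animal has 1 library and is 1 replicate, and values of single animals are given in the order of these numbers.

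LPS is sensed by Toll-like receptor 4, which activates NF-kB and so the transcription of cytokines, chemokines and adhesion molecules that draw neutrophils and then monocytes into a tissue. The same pathway induces its own inhibitors, and acute inflammatory transcripts are usually short-lived. In the preterm lung, intraamniotic LPS reaches the airspace epithelium directly, where alveolar type 1 cells, flat cells of gas exchange, and alveolar type 2 cells, the source of surfactant, are still maturing. The question of the comparison was which transcripts are back at the level of untreated lungs after 5 d, which are not, and which lie on the other side.

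Libraries held 30596371 to 48052891 estimated counts at 16 h, 20214144 to 27160740 at 5 d and 20169363 to 28348816 in preterm controls, so that low levels rest on fewer counts at 5 d. A gene was called when it differed at least 2-fold at an adjusted p below 0.05 by limma, and levels are given in CPM, which sets a gene's estimated counts against the scaled total of its library. The first principal component of the 7 LPS animals held 56.6% of their variance and placed the LPS 16h animals between -64.7 and -44.5 and the LPS 5d animals between 72.3 and 74.5. Animal 029 stood apart from the other LPS 16h animals on the second, at -68.8 against 16.5 to 25.1 (14.4% of the variance). Surfactant protein C (SFTPC) and NKX2-1, the transcription factor that defines lung epithelium, were present in each of these 11 libraries, NKX2-1 at 47.2 CPM or more. Heart muscle transcripts, looked for after the values were seen, summed to 1330 CPM in animal 240 and to between 7.16 and 16.3 CPM in the other 10 animals. Sequencing batches were not given by the labels, so batch and time cannot be told apart.

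Between 16 h and 5 d, 2800 of 19199 genes tested were called (14.6%), 1278 higher at 5 d (6.66%) and 1522 lower (7.93%). The values of the 2 groups did not overlap for 2671 of the 2800. Against preterm controls, 2757 genes were called at 16 h (14.4%), 1583 higher (8.25%) and 1174 lower (6.11%), and 928 at 5 d (4.83%), 499 higher (2.6%) and 429 lower (2.23%). The 2 times were then read together. A gene was counted as resolved when it was called at 16 h, not called at 5 d and called back towards the controls between the times. It was persisting when called in the same direction at both times, reversed when called in opposite directions, and late when called only at 5 d and between the times. Both times were set against the same 4 controls, so these are counts that the rule fixes, without a test of the overlap.

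By this rule 1523 genes (7.93%) resolved, 938 that had been higher at 16 h and 585 that had been lower. A further 380 genes (1.98%) persisted, 255 higher and 125 lower. Among the 255, 142 had receded by a call between the times, 109 were not called between the times and 4 had grown. MAP3K2, a kinase of stress signalling picked from these 4 after its values were seen, was at 1.22, 2.96, 1.95 and 2.77 CPM in controls, 7.24, 3.78, 8.21 and 6.16 CPM at 16 h and 15, 13.2 and 20.1 CPM at 5 d. Among the 125, 117 were not called between the times and 8 had receded. Only 25 genes (0.13%) reversed, 9 from higher to lower and 16 from lower to higher, and 241 (1.26%) were late, 139 higher and 102 lower at 5 d. For 829 genes called at 16 h alone and 282 called at 5 d alone, no call between the times told the groups apart, so they were put in none of these classes. The median log2 change of the 938 genes was 1.95 at 16 h and 0.12 at 5 d, and that of the 255 persisting genes was 2.88 and 1.56. The 125 genes persisting lower had medians of -1.42 at 16 h and -1.38 at 5 d.

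**Figure D1:**
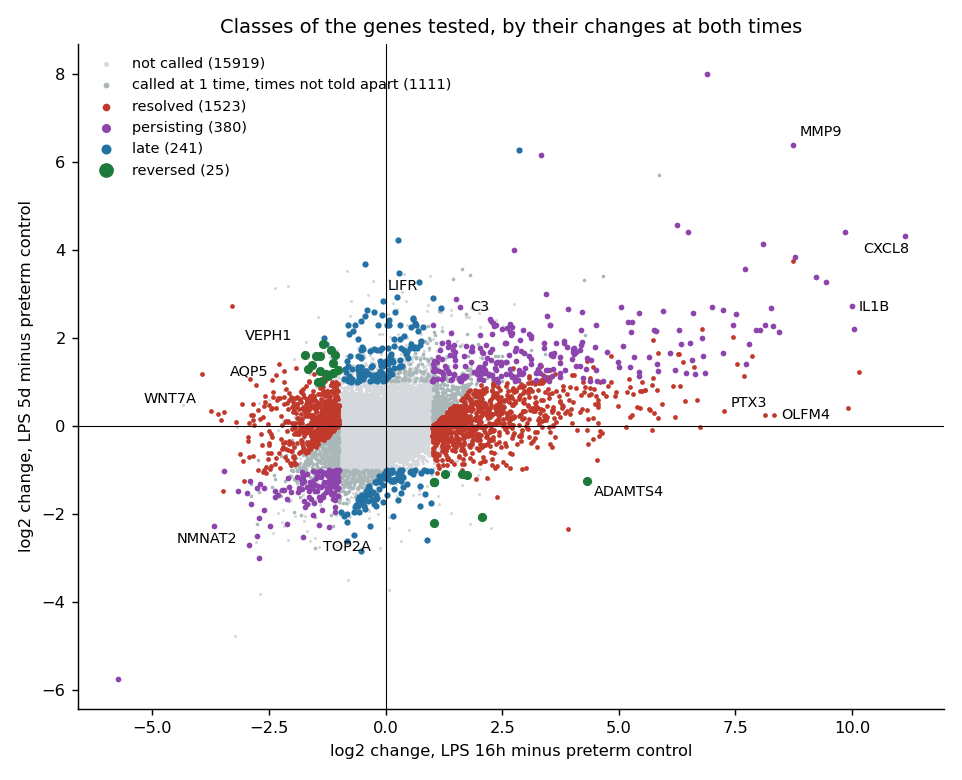
Each point is 1 of 19199 genes, placed by its log2 change against the same preterm controls at 16 h (horizontal axis) and at 5 d (vertical axis), and coloured by class with the number of genes in brackets. The resolved genes lie in a band around 0 on the vertical axis, the persisting genes in the upper right and lower left corners, and the 25 reversed genes in the other 2 corners.

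The gene lists separated by what happened after 16 h. Each was written from general knowledge, with earlier results of these data known. Its counts are set beside 7.93% of all genes called lower and 6.66% called higher between the times, with a median log2 change of 0.04. Against controls, the shares of all genes were 8.25% higher and 6.11% lower at 16 h, and 2.6% higher and 2.23% lower at 5 d. By class, 7.93% of all genes resolved, 1.98% persisted and 1.26% were late. In bulk tissue, fewer cells of a type and less RNA per cell cannot be told apart. Of the 27 lists, cytokines and chemokines fell furthest, with a median log2 change of -4.95 between the times and 26 of 29 genes called lower. Alveolar type 1 genes moved the other way, with a median of 1.28 and 10 of 14 genes called higher. Proliferation genes went from a median of -0.24 against controls at 16 h to -1.05 at 5 d. For endothelial genes the medians were -0.33 and -0.32, and for the interstitial matrix -0.56 and -0.68.

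**Figure D2:**
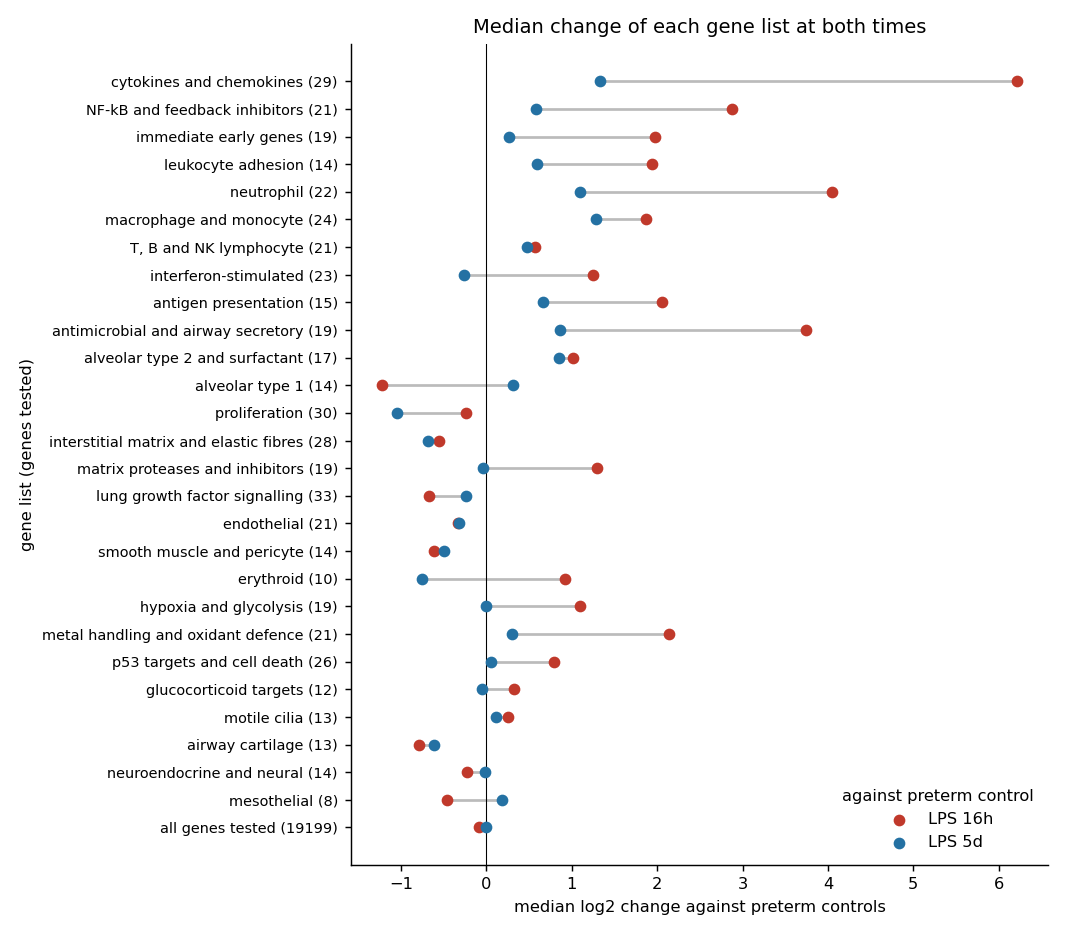
Median log2 change against preterm controls of each of 27 gene lists and of all genes tested (last line, with the number of genes tested in brackets) at 16 h (red) and 5 d (blue). Most inflammatory lists move from far right of 0 towards it, the alveolar type 1 list crosses 0 from -1.22 to 0.31, and the proliferation list moves further left.

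All 29 cytokine and chemokine genes tested were higher than controls by a call at 16 h. By 5 d, 13 had resolved and 15 were still called higher, 13 of these after a call downward between the times. IL6, the pyrogenic cytokine of the acute-phase response, was among those that returned. It was at 109.7, 191, 144 and 252 CPM in the LPS 16h animals, at 0.327, 0.537 and 0.0951 CPM in the LPS 5d animals and at 0.0435, 0.0463, 0.248 and 0.0364 CPM in the preterm controls. Animal 242 lay within the range of the controls and animals 239 and 240 above it, all far below the lowest LPS 16h animal, and no fold change is given because the controls had fewer than 4 counts on average. IL1RN, the natural antagonist of the interleukin 1 receptor, was at 609, 529, 504 and 505 CPM at 16 h, 11.2, 19.9 and 13.8 CPM at 5 d and 17.9, 12.2, 16.6 and 13.6 CPM in controls. It rose by a log2 change of 5.16 (SE 0.27) and fell back by the same measure, -5.19 (SE 0.29, adjusted p = 1.4e-08 by limma). CSF1, the growth factor of macrophages, went from 516 ± 73.1 CPM (SD, n = 4) at 16 h to 45.9 ± 5.86 CPM (SD, n = 3) at 5 d, against 27.3 ± 5.56 CPM (SD, n = 4) in controls, and also resolved. TNF, CSF2, CSF3, LIF, IL10, CXCL6, CXCL9, CXCL11, CCL8 and CX3CL1 were the other resolved members, while CCL13 was called at 16 h alone without a call between the times.

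The neutrophil chemoattractant CXCL8 did not return to the level of the controls. Its values were 613, 445, 333 and 914 CPM at 16 h, 5.63, 3.61 and 5.09 CPM at 5 d and 0.261, 0.0463, 0.106 and 0.401 CPM in controls. No LPS 5d animal reached the lowest LPS 16h animal, and none came down to the highest control. The log2 change against controls was 11.14 (SE 0.46) at 16 h and 4.32 (SE 0.50, adjusted p = 0.000299 by limma) at 5 d. IL1B, the main inflammasome-processed cytokine, was at 1176, 913, 778 and 1639 CPM at 16 h, at 6.14, 7.26 and 7.27 CPM at 5 d and at 1.78, 0.602, 1.14 and 0.765 CPM in controls, which left a log2 change of 2.71 (SE 0.55) at 5 d. CCL20, an epithelial chemokine for CCR6-bearing lymphocytes and dendritic cells, fell from 1441 ± 892 CPM (SD, n = 4) to 17.7 ± 7.34 CPM (SD, n = 3) and stayed above the 2.63 ± 2.06 CPM (SD, n = 4) of controls, although this last call was lost with gestational age in the model (adjusted p = 0.0601 by limma) and when any 1 LPS 5d animal or control 092 was left out (adjusted p = 0.0506 to 0.101 by limma). CCL2, CCL3, CCL5, CCL7, CXCL1, CXCL3, CXCL10, CXCL16, IL1A and OSM also persisted. The call of CXCL10 at 5 d was lost in 4 of 18 alternative settings, and CCL7 kept the class in only 10 of the 18. IL11 (log2 -0.62 between the times, SE 0.49) and CXCL13 (at 6.71, 2.66, 12.1 and 7.44 CPM at 16 h and 4.47, 0.96 and 1.57 CPM at 5 d) persisted without a call between the times.

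**Figure D3:**
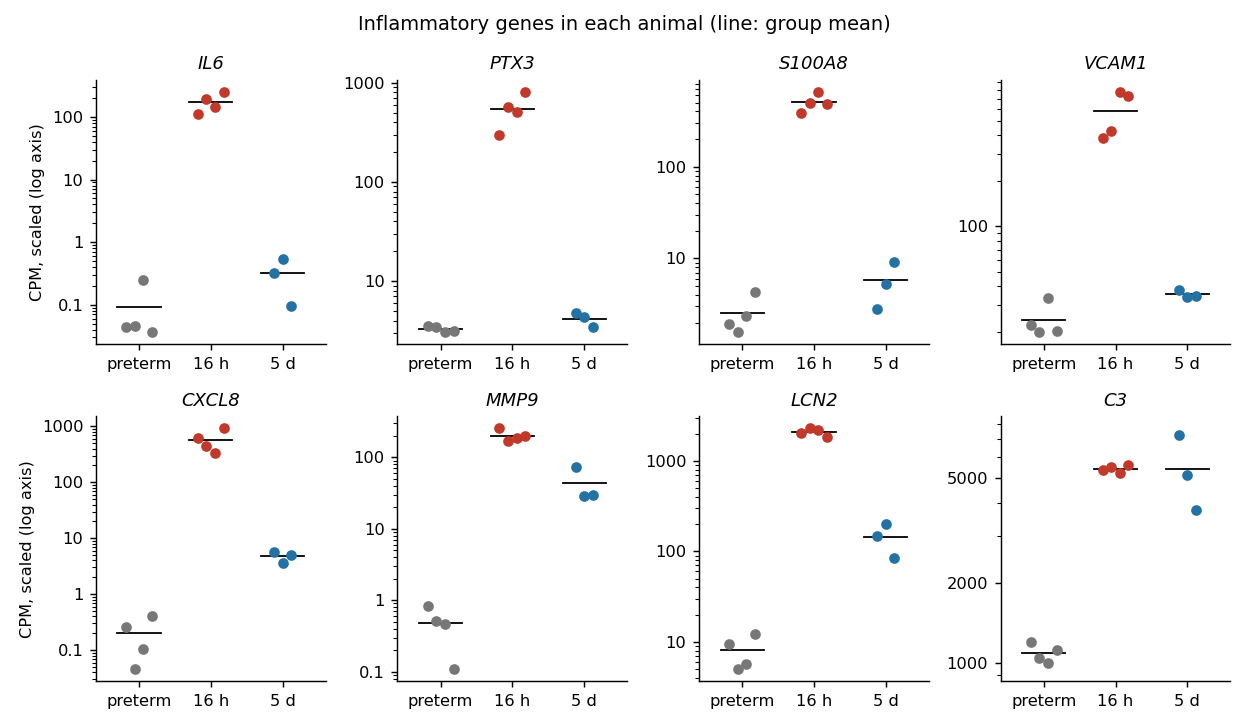
Level of 8 inflammatory genes in each animal (points, CPM on a log axis) in preterm controls, at 16 h and at 5 d, with a line at the group mean. The upper row holds resolved genes, whose 5 d points lie at or just above the controls, and the lower row persisting genes, whose 5 d points lie above every control, for C3 at the level of 16 h.

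Genes of the NF-kB pathway and its feedback inhibitors followed the cytokines with smaller changes. Of 21 tested, 20 were called higher at 16 h, and 14 of these resolved and 6 persisted. TNFAIP3, also known as A20, a deubiquitinase that shuts off NF-kB signalling, was at 540.5, 526, 531 and 745 CPM at 16 h, 50.1, 57.9 and 56.1 CPM at 5 d and 47.2, 44.6, 45.1 and 42.5 CPM in controls. The LPS 5d animals lay above the highest control, by a log2 change of 0.28 (SE 0.17) that was not called. NFKBIA, the cytoplasmic inhibitor of NF-kB, persisted, at 208 ± 28.1 CPM (SD, n = 3) at 5 d against 96.4 ± 8.46 CPM (SD, n = 4) in controls and 1309 ± 261 CPM (SD, n = 4) at 16 h. SOCS3, BIRC3, ZC3H12A, TNIP3 and REL were the other persisting members. TLR4, the receptor itself, rose at 16 h to 102, 55.2, 62 and 51.1 CPM and was at 8.32, 5.95 and 9.74 CPM at 5 d against 6.18, 5.42, 4.26 and 4.04 CPM in controls, and was counted as resolved with a remaining log2 difference of 0.67 (SE 0.25). Of 19 immediate early genes, 11 were higher at 16 h, 9 resolved (MYC, ATF3, IER3, EGR2 and EGR3 among them) and JUNB persisted. FOS spread widely within every group, from 102 to 344 CPM at 16 h, from 43.9 to 442 CPM at 5 d and from 5.11 to 127.7 CPM in controls, and was not called in any of the 3 comparisons, although at 16 h it was called by limma-voom (log2 2.58, adjusted p = 0.0336) and without animal 242 or 092.

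Neutrophil genes fell from 16 h to 5 d but did not all return. Of 22 tested, 17 were called higher at 16 h, 7 resolved and 9 persisted, and their summed level was 54.03 to 92.5 CPM in controls, 2134 to 2736 CPM at 16 h and 208.5 to 211.6 CPM at 5 d. S100A8, a calcium-binding protein abundant in neutrophils, was at 381, 496, 655 and 482 CPM at 16 h, 2.83, 5.3 and 9.27 CPM at 5 d and 1.92, 1.57, 2.34 and 4.26 CPM in controls, and resolved. Its partner S100A9 was at 776, 981, 1197 and 868 CPM, 6.57, 20.1 and 27 CPM and 3.22, 3.57, 7.74 and 3.42 CPM in the same groups, and persisted by a call (log2 1.85, SE 0.49), although animal 239 lay within the range of the controls and the call was lost without animal 240 (adjusted p = 0.0908 by limma) and in 3 of the other alternative settings. MMP9, a gelatinase stored in neutrophil granules and also made by macrophages, was still far above the controls at 5 d. It was at 253, 170.4, 186 and 198 CPM at 16 h and at 72.8, 28.6 and 29.5 CPM at 5 d, and no control exceeded 0.827 CPM. The drop between the times was not called (log2 -2.34, SE 0.90, adjusted p = 0.0611 by limma), but it was with gestational age in the model (adjusted p = 0.0149 by limma) and under 2 other alternatives. Granule genes did not all move alike. MPO, ELANE, AZU1 and PRTN3 were between 0.346 and 4.55 CPM in the means of the 3 groups and were not called. BPI, CAMP and CEACAM8, also of neutrophil granules, rose and resolved, and kept this class in all 18 alternative settings. MMP8, PROK2 and S100A12, genes of mature neutrophils, were at 0.143 CPM or less in every control and every LPS 5d animal and at 2.7 to 186 CPM at 16 h. OLFM4 and CD177, markers of neutrophil subsets, were among the largest changes of the resolved class, OLFM4 at 119.9, 53, 198 and 139.8 CPM at 16 h, 0.617, 0.0384 and 0.951 CPM at 5 d and 0.131, 0.232, 0.852 and 0.219 CPM in controls.

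Macrophage and monocyte genes were between the 2 levels at 5 d. Their summed level was 573.4 to 686.1 CPM in controls, 1476 to 1852 CPM at 16 h and 1046 to 1095 CPM at 5 d, and the ranges did not overlap. Of 24 genes, 17 were called higher at 16 h, 10 persisted and 3 resolved (CCR2, TREM2 and MRC1). CD14, the co-receptor of LPS on monocytes, was at 526, 638, 638 and 440.3 CPM at 16 h, 81.8, 114 and 64.2 CPM at 5 d and 28.6, 30.1, 30.4 and 43.5 CPM in controls. CD163, the haemoglobin scavenger receptor of tissue macrophages, was at 131, 73.1, 62.4 and 118 CPM, 26.1, 18.4 and 24.5 CPM and 11.2, 4.4, 9.05 and 7.21 CPM. Both fell and both stayed called above controls. The complement genes C1QB and C1QC persisted without a call between the times. C1QB was at 21.7, 30.2, 18.1 and 18.4 CPM at 16 h and 42.2, 28.3 and 34.5 CPM at 5 d, against 14.5, 7.69, 8.73 and 7.65 CPM in controls. VSIG4, a complement receptor of resident macrophages, and APOE were higher at 5 d than at 16 h by log2 changes of 2.36 (SE 0.47) and 1.17 (SE 0.33). TREM1, an amplifying receptor of myeloid cells, and BCL2A1, a survival factor, were among the 8 persisting genes with the largest changes. MARCO, a scavenger receptor of alveolar macrophages, was at 0 in all 4 controls and at 3.23, 6.36, 7.51 and 9.83 CPM at 16 h and 1.96, 3.46 and 0.38 CPM at 5 d. The part that the number of neutrophils and macrophages in the tissue has in the cytokine changes was not tested.

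Of 23 interferon-stimulated genes tested, 13 were called higher at 16 h, against 8.25% of all genes, and 12 of them resolved. Between the times, 17 of 23 were called lower at 5 d, against 7.93% of all genes. No gene of this list was called against controls at 5 d. As only 4.83% of all genes were called there, this says little for a list of 23. ISG15, the ubiquitin-like interferon-induced protein, was at 22.1, 14.2, 76.9 and 13.4 CPM at 16 h, 7.37, 5.72 and 5.42 CPM at 5 d and 7.66, 7.97, 6.74 and 7.4 CPM in controls. Animal 035 was highest at 16 h, and 2 of the 3 LPS 5d animals lay below the range of the controls without a call at 5 d (log2 -0.28, SE 0.45). IFIT1, IFIT3, IFIT5, OAS2 and IFI44 were called lower at 5 d than at 16 h without having been called against controls at either time. Antigen presentation genes rose at 16 h in all 15 cases. Proteasome and loading genes (PSMB8, PSMB9, PSMB10, TAPBP, B2M) and their regulators NLRC5, CIITA and CD40 resolved, while CD74, the invariant chain, was still at 566 ± 50.2 CPM (SD, n = 3) against 177 ± 14.7 CPM (SD, n = 4) in controls. MAMU-DMB and CD86 persisted as well.

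Adhesion molecules of activated endothelium rose and were counted as resolved by the rule. SELE, the endothelial selectin that slows leukocytes, was at 20.6, 61.6, 43.9 and 141 CPM at 16 h, 1.74, 1.84 and 1.43 CPM at 5 d and 0.348, 0.695, 0.923 and 0.437 CPM in controls. VCAM1 was at 383, 426, 776 and 732 CPM, 37.7, 34.2 and 34.8 CPM and 22.3, 19.9, 33.7 and 20.2 CPM in the same groups. All LPS 5d animals lay above every control for both genes. Neither difference from controls was called (SELE log2 1.45, SE 0.55, and VCAM1 log2 0.60, SE 0.31). SELE was called at 5 d when animal 038 was left out of the fit (log2 1.47, adjusted p = 0.0462 by limma). Of 14 genes in the list, 9 rose at 16 h, 6 resolved and 3 persisted. These 3 were the integrin alpha chains of leukocytes (ITGAL, ITGAM and ITGAX), while ITGB2, the beta chain that pairs with them, resolved. ITGAL held as persisting in all 18 alternative settings, but ITGAX in 11 and ITGAM in 10. Among proteases and their inhibitors, 9 of 19 genes were resolved from a higher level. TIMP1, an inhibitor of metalloproteinases, went from 1380 ± 422 CPM (SD, n = 4) to 73.2 ± 12.7 CPM (SD, n = 3) against 65.9 ± 9.56 CPM (SD, n = 4) in controls. MMP7, an epithelial metalloproteinase, was the 1 member of this list, which does not hold MMP9, that persisted (log2 4.20 at 16 h and 2.18 at 5 d, SE 0.36 and 0.39).

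PTX3, HAS2, TNFAIP6 and MYBPC2 were also among the 8 resolved genes with the largest return from a higher level. PTX3, a long pentraxin that bridges complement and matrix, was at 299, 567, 504 and 812 CPM at 16 h, 4.76, 4.34 and 3.47 CPM at 5 d and 3.53, 3.47, 3.05 and 3.13 CPM in controls. HAS2, a hyaluronan synthase, was at 113, 286, 223 and 302 CPM, 5.12, 6.6 and 4.52 CPM and 11.8, 9.12, 10.3 and 6.56 CPM. TNFAIP6, a hyaluronan-binding protein, changed by a log2 value of 5.83 (SE 0.29) and came back by -5.66 (SE 0.32). MYBPC2, a myosin-binding protein of fast skeletal muscle, was at 26, 49.5, 25.6 and 44.2 CPM at 16 h and 1.27, 0.768 and 0.428 CPM at 5 d, with all 4 controls at 0.603 CPM or less.

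Antimicrobial proteins split into a group that returned and a group that stayed. PI3, SLPI and DUOX2, which are protease inhibitors and an oxidase of mucosal surfaces, resolved. LCN2, a siderophore-binding protein, fell from 2039, 2275, 2210 and 1847 CPM at 16 h to 147, 199.7 and 83.6 CPM at 5 d, against 9.54, 5.05, 5.68 and 12.1 CPM in controls. It was still above controls by a log2 change of 4.14 (SE 0.35, adjusted p = 4.93e-05 by limma). Complement C3 was not called between the times. It was at 5335, 5480, 5220 and 5581 CPM at 16 h and 7286, 5103 and 3764 CPM at 5 d, against 1193, 1040, 999 and 1113 CPM in controls, a difference between the times of -0.06 on the log2 scale (SE 0.18). CFB, the protease of the alternative complement pathway, was at 1378, 1522, 1842 and 1653 CPM, 623, 632 and 342 CPM and 109.9, 56.9, 92.2 and 93.1 CPM, so that it receded (log2 -1.63 between the times) and persisted. MUC1, a membrane mucin of the epithelium, was at 353 ± 35.6 CPM (SD, n = 3) at 5 d, 258 ± 24.2 CPM (SD, n = 4) at 16 h and 126 ± 6.59 CPM (SD, n = 4) in controls, and persisted without a call between the times. PIGR, the transporter of immunoglobulin A, and CHI3L1 persisted too.

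Many genes of the stress response and of glycolysis rose at 16 h. Of 21 genes for metal handling and oxidant defence, 15 were higher at 16 h, 7 resolved and 6 persisted. The 7 include MT1E under 2 identifiers. MT1X, a metallothionein, was at 54.1, 97.1, 175 and 107 CPM at 16 h, 4.32, 5.76 and 3.9 CPM at 5 d and 5.22, 5.51, 3.94 and 5.28 CPM in controls, and metallothionein genes are near-identical copies among which reads can be divided with uncertainty. SOD2, the mitochondrial superoxide dismutase, was at 6012, 6777, 6824 and 8664 CPM at 16 h and still at 172, 179 and 209 CPM at 5 d, against 84.5, 69.7, 91.8 and 80 CPM in controls. The iron-related genes FTH1 and HMOX1 and the secreted peroxidase GPX3 persisted at log2 changes of 1.26, 1.23 and 1.51 (SE 0.26, 0.25 and 0.42). In the hypoxia and glycolysis list, 7 of 19 genes resolved, among them LDHA, PGK1, ENO1 and the glucose transporters SLC2A1 and SLC2A3. HK2, the inducible hexokinase, persisted. It was at 81.2, 64, 62.8 and 70.8 CPM at 16 h and 85.6, 49.6 and 50.8 CPM at 5 d, against 11, 11.2, 14.7 and 21.9 CPM in controls. Of 26 p53 targets and cell death genes, 12 were higher at 16 h and 7 resolved (CDKN1A, GADD45A, PMAIP1, BID, BCL2, PPP1R15A and TNFRSF10B), while BBC3, which encodes the pro-apoptotic protein PUMA, was late, at 15, 11 and 8.89 CPM at 5 d, 3.62, 4.07, 4.17 and 3.69 CPM at 16 h and 6.71, 4.35, 4.12 and 5.17 CPM in controls.

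Alveolar type 2 genes did not move as one list, although their summed level was higher in every LPS animal than in every control. It was 7844 to 13380 CPM in controls, 14310 to 28430 CPM at 16 h and 18770 to 34040 CPM at 5 d. SFTPB, the gene of surfactant protein B, was at 2590 to 3050 CPM in controls, 3220 to 5150 CPM at 16 h and 4190 to 7510 CPM at 5 d. Of 17 tested, 5 persisted, 3 resolved and 6 were not called against controls at either time. NAPSA was called higher at 16 h alone. SFTPA1 and ETV5 were called at 5 d alone, 1 of them higher and 1 lower. ABCA3, the lipid transporter of lamellar bodies, was at 820, 763, 782 and 655 CPM at 16 h, 369.6, 604 and 403 CPM at 5 d and 174, 159.8, 190.3 and 239.9 CPM in controls. Every LPS animal was above every control, and the difference between the times was not called (log2 -0.75, SE 0.19, adjusted p = 0.00679 by limma). SLC39A8, a zinc and manganese importer of type 2 cells, fell from 1801 ± 255 CPM (SD, n = 4) to 540.4 ± 142 CPM (SD, n = 3) and remained called above the 154 ± 66.2 CPM (SD, n = 4) of controls. CTSH, a protease that processes surfactant protein B, SLC34A2, a phosphate transporter, and the collectin SFTPD persisted without a call between the times. SFTPD was at 2033, 2181, 1569 and 1223 CPM at 16 h, 2000, 2740 and 2083 CPM at 5 d and 776, 629, 1211 and 879 CPM in controls, with every LPS animal above every control. Its rise at 16 h was close to the 2-fold limit (log2 1.01, SE 0.21) and came under it when animal 026, 029, 092 or 101 was left out (0.86 to 0.96). LAMP3, a lamellar body membrane protein, SCD, a fatty acid desaturase, and CEBPD, a transcription factor, rose and resolved. CEBPD was at 301, 491, 305 and 256 CPM at 16 h and 44.4, 58.4 and 52.4 CPM at 5 d. SFTPC itself was at 5690, 6910, 4111 and 1797 CPM at 16 h and 5088, 7450 and 4999 CPM at 5 d, against 2132, 2064, 4111 and 3474 CPM in controls. Animal 038 was below all controls, all LPS 5d animals were above them, and no call was made at either time, although at 5 d there was a call when animal 038 was left out of the fit (log2 1.06, adjusted p = 0.0256 by limma). NKX2-1 was higher at 5 d (156, 154 and 136 CPM) than at 16 h (77.6, 67.4, 73.2 and 47.2 CPM) by a log2 change of 1.19 (SE 0.19), and controls were at 113, 82.6, 76.6 and 114 CPM. The LPS 5d animals were above every control, while animal 026 at 16 h lay within their range.

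Alveolar type 1 genes fell at 16 h and came back. Of 14 genes, 9 were lower at 16 h, and 8 of these resolved. AQP5, the water channel of the apical membrane, was at 11.8, 41, 11.4 and 17 CPM at 16 h, 122, 126 and 128 CPM at 5 d and 74.1, 111, 77.8 and 132 CPM in controls. Its LPS 5d values lay within the range of the controls, and the change between the times was 2.83 on the log2 scale (SE 0.47, adjusted p = 0.000386 by limma). CLIC5, a chloride channel protein linked to the cytoskeleton, was at 235, 206, 189 and 195 CPM, 880.3, 714 and 698 CPM and 803, 663, 851 and 849.5 CPM. CLDN18, a tight junction protein, GPRC5A, EMP2, HOPX, RTKN2 and S100A14 resolved likewise. CLDN18 was at 99.8 ± 28.7 CPM (SD, n = 3) at 5 d, 23.6 ± 5.66 CPM (SD, n = 4) at 16 h and 57.6 ± 17.1 CPM (SD, n = 4) in controls, and its call at 16 h was lost with gestational age in the model (log2 -0.83, adjusted p = 0.136 by limma). AGER, the receptor that marks type 1 cells, was called between the times alone (log2 1.15, SE 0.35), a call that was lost with gestational age in the model (0.92, adjusted p = 0.107 by limma) and without animal 239 (0.81, adjusted p = 0.11 by limma). PDPN was at 89.2 to 153 CPM over the 11 animals and was not called. ICAM1, which type 1 cells share with endothelium, had the opposite course, at 1680 ± 448 CPM (SD, n = 4) at 16 h and 284 ± 33.4 CPM (SD, n = 3) at 5 d.

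**Figure D4:**
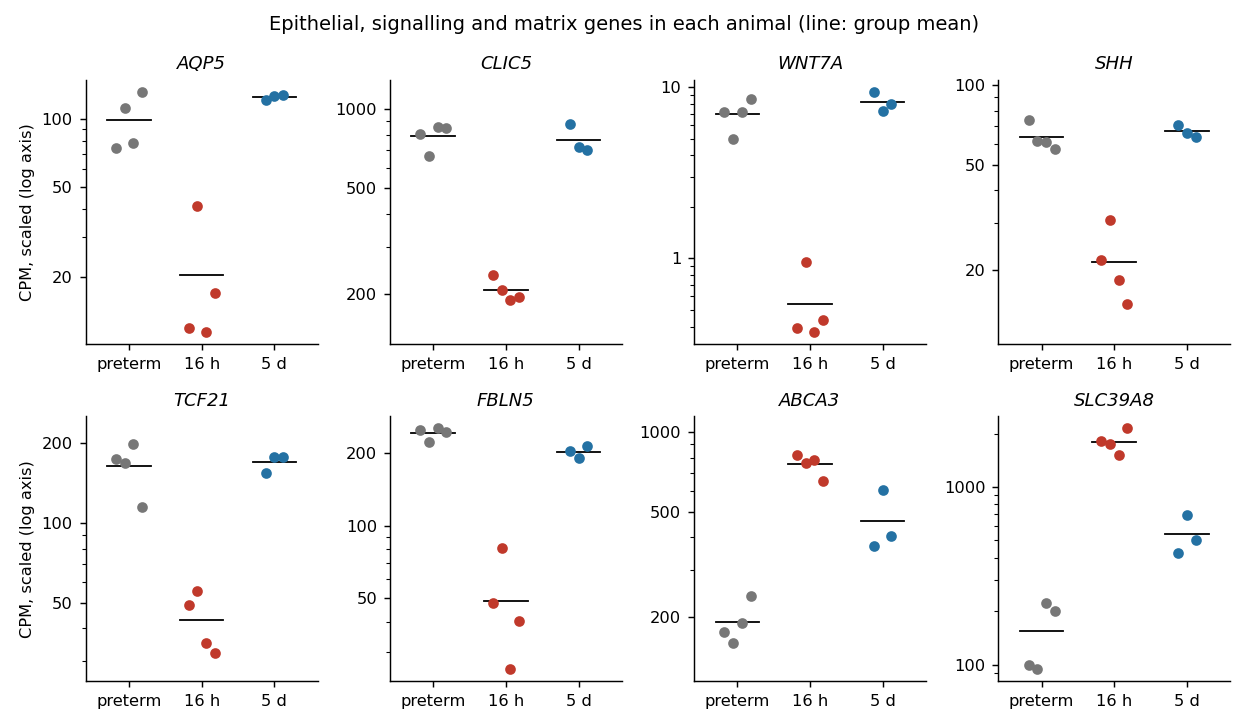
Level of 8 lung genes in each animal (points, CPM on a log axis) in preterm controls, at 16 h and at 5 d, with a line at the group mean. The type 1 genes AQP5 and CLIC5, the signals WNT7A and SHH, the mesenchymal factor TCF21 and the elastic fibre gene FBLN5, dip at 16 h and lie near the controls at 5 d, while the type 2 genes ABCA3 and SLC39A8 lie above the controls at both times.

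Several signals between lung epithelium and mesenchyme fell at 16 h and came back. Of 33 growth factor signalling genes, 10 were lower at 16 h, against 6.11% of all genes, and 8 of them resolved. WNT7A, a WNT ligand, was at 0.391, 0.957, 0.371 and 0.436 CPM at 16 h, 9.41, 7.29 and 7.99 CPM at 5 d and 7.14, 4.96, 7.13 and 8.56 CPM in controls. SHH, the hedgehog ligand of the epithelium, was at 21.7, 30.8, 18.3 and 14.8 CPM, 70.6, 65.7 and 63.7 CPM and 73.9, 61.2, 60.8 and 57.4 CPM, and its receptor PTCH1, itself a hedgehog target, fell and returned too, just past the 2-fold limit (log2 1.05 between the times, SE 0.26). The related ligand IHH was among the 8 largest resolved genes, with 0.639, 0.479, 1.02 and 0.0582 CPM at 16 h and 8.1, 4.61 and 3.99 CPM at 5 d. TCF21, a transcription factor of lung fibroblasts, was at 48.9, 55.1, 35.2 and 32.2 CPM at 16 h and 155, 177 and 177 CPM at 5 d, against 175, 169, 198 and 115 CPM in controls. FGF1, FGF18, WNT7B and FGFR3 completed the resolved members. FGFR2, the epithelial receptor for FGF7 and FGF10, was late and higher, at 122, 118, 122 and 99.3 CPM at 16 h, 304, 459 and 487 CPM at 5 d and 232, 153, 225 and 208 CPM in controls. Its LPS 16h animals lay below every control without a call (log2 -0.82, SE 0.15), and its change at 5 d, 1.01 on the log2 scale (SE 0.17), came under the 2-fold limit when animal 240 (0.96), 242 (0.89) or 101 (0.88) was left out. FGF7, its mesenchymal ligand, rose at 16 h and resolved, with LPS 5d animals (9.33, 14.3 and 13.1 CPM) below every control (20.9, 20, 24.4 and 19.3 CPM). FGF10, the other ligand, was lower at 5 d than at 16 h (log2 -1.02, SE 0.24) and was not called against controls. SPRY4, a feedback inhibitor of FGF signalling, was late and lower, at 24.6, 26.3 and 35.5 CPM at 5 d against 58.9, 90.8, 75.2 and 51.4 CPM in controls.

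The genes with the largest return from a lower level were of low abundance. MS4A15, a membrane protein of the MS4A family, was at 0.355, 0.425, 0.0464 and 0.0582 CPM at 16 h, 8.68, 7.76 and 8.32 CPM at 5 d and 3.79, 1.53, 4.62 and 6.08 CPM in controls. All LPS 5d animals lay above every control without a call (log2 1.19, SE 0.69). CHRNA2, a nicotinic acetylcholine receptor subunit, was at 1.24, 5.16, 2.99 and 1.02 CPM, 26.9, 23.9 and 33 CPM and 21.6, 13.1, 47.9 and 30.5 CPM, so that its LPS 5d animals lay within the range of the controls. AQP2, the vasopressin-regulated water channel of the kidney, CCDC190, KIF12, a kinesin, and IFI27L1 were the others named besides WNT7A and IHH. IFI27L1 was at 0.348, 0.37, 4.22 and 3.79 CPM in controls and 0.284, 0.346, 0.162 and 0.0872 CPM at 16 h, and its call at 16 h was lost with gestational age in the model (log2 -0.83, adjusted p = 0.456 by limma).

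In the interstitial matrix, 7 of 28 genes tested were lower at 16 h, against 6.11% of all genes, and 2 were lower at 5 d, against 2.23%. Of the 7, 2 resolved. FBLN5, which assembles elastic fibres, was at 47.7, 80.7, 25.5 and 40.5 CPM at 16 h, 205, 191 and 214 CPM at 5 d and 249.5, 222, 253 and 246 CPM in controls. MFAP4, an elastic fibre glycoprotein, resolved with smaller changes. ELN, which encodes elastin, was lower at 16 h (log2 -1.33, SE 0.12), and at 5 d, with 1863, 1831 and 1530 CPM against 2690, 2648, 2572 and 3364 CPM in controls, its difference was not called at the 2-fold limit (log2 -0.69, SE 0.12), nor was the step between the times (log2 0.64, SE 0.12). COL1A1, COL1A2 and COL3A1, the fibrillar collagens of the lung, were not called in any of the 3 comparisons. OGN, a small leucine-rich proteoglycan, persisted lower, at 52.5, 42.1, 19.1 and 30.5 CPM at 16 h, 61.2, 56.4 and 53.1 CPM at 5 d and 224, 146, 224 and 129 CPM in controls. TNC and EMILIN1 were lower at 5 d than at 16 h and were not called against controls.

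Named genes that fell and stayed low were ranked by the smaller of their 2 changes against controls. NMNAT2, an enzyme of NAD synthesis in axons, was at 2.31, 0.931, 1.14 and 1.28 CPM at 16 h, 4.18, 2.53 and 4.66 CPM at 5 d and 16.9, 17.1, 18.9 and 19.3 CPM in controls. KRT77, an epithelial keratin, was at 0.497, 0.346, 0.185 and 0.291 CPM, 0.29, 0.461 and 0.428 CPM and 2.61, 2.87, 2.63 and 2.08 CPM. MATN3, a cartilage matrix protein, was at 6.35, 9.09, 3.13 and 2.67 CPM, 9.48, 10.9 and 10.2 CPM and 27.7, 26.9, 35.5 and 56.4 CPM, and had partly come back by a call that was lost in 8 of 18 alternative settings. NWD2, RBM44, KCNIP1, SERPINB13 and MPPED1 complete the 8 named of 92 that met the rule for naming. Among the higher persisting genes, PIP, a secreted protein of exocrine glands, was not called between the times, with 4.97, 8.72, 2.76 and 7.21 CPM at 16 h and 2.25, 9.79 and 2.76 CPM at 5 d, but its call at 5 d was lost without animal 240 (adjusted p = 0.0996 by limma), without 092 or 113 and by limma-voom (adjusted p = 0.0502 to 0.0509).

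Genes of mitosis fell late. Of 30 proliferation genes, 15 were called lower at 5 d against controls and 1 (E2F1) at 16 h, and 8 were late by the rule: TOP2A, NUSAP1, KIF20A, KIF11, CCNB1, CCNB2, BUB1 and MKI67. TOP2A, the topoisomerase of dividing cells, was at 38.2, 22.3, 29.9 and 41.8 CPM at 16 h, 11.9, 11.9 and 11.5 CPM at 5 d and 36.8, 40.3, 62.7 and 38.6 CPM in controls. The 3 LPS 5d animals were almost identical and below every other animal, while 2 of 4 LPS 16h animals lay within the range of the controls. MKI67, the gene of the Ki-67 antigen, was at 37.2, 21.9, 43.3 and 53.4 CPM, 18.1, 16.8 and 14.9 CPM and 41.7, 28.6, 44.9 and 37.8 CPM. KIF20A, a kinesin of cell division, changed by a log2 value of -1.79 (SE 0.23, adjusted p = 0.000359 by limma) at 5 d. The replication genes MCM2, MCM3, MCM4, MCM5, MCM6, MCM7 and PCNA were called in none of the 3 comparisons, and MCM7 was at 41.6 ± 7.01 CPM (SD, n = 3) at 5 d and 38.9 ± 1.38 CPM (SD, n = 4) in controls. Other late and lower genes named by the rule were PTGER3, a prostaglandin E2 receptor, S1PR3, a sphingosine 1-phosphate receptor, ARRDC3, SERPINA5, STARD4, SMIM2 and DEPDC1. S1PR3 and SMIM2 were already higher at 16 h by less than 2-fold (log2 0.97 and 0.90, adjusted p = 0.0061 and 0.0178 by limma). For S1PR3 every LPS 16h animal lay above every control. The late class held in 10 of 18 alternative settings for S1PR3, 9 for SMIM2 and 13 for ARRDC3. PTGER3 was at 3.16, 2.37, 3.06 and 6.66 CPM at 16 h, 0.908, 0.576 and 0.19 CPM at 5 d and 1.57, 2.13, 1.35 and 2.15 CPM in controls.

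Late changes were less stable than their number, since 73 of the 241 genes kept the class in all 18 alternative settings that kept the 2-fold limit. LIFR, the receptor of leukaemia inhibitory factor, was at 16.1, 6.81, 20 and 8.52 CPM at 16 h, 69.5, 64.3 and 145 CPM at 5 d and 5.44, 19.5, 12.5 and 16.2 CPM in controls. APOC1, an apolipoprotein of macrophages, was at 2.7, 5.61, 2.6 and 2.33 CPM, 18.9, 26.5 and 29.1 CPM and 3.4, 7.13, 5.18 and 4.77 CPM. In both genes every LPS 5d animal was above all other animals. NBEAL1, MLPH, SCGB1C1, DDX4 and CIMAP1A were further named genes, the last 3 at 4.9 CPM or less in every animal. TTN, the giant sarcomere protein titin, was at 27.3, 142 and 43.9 CPM at 5 d, and animal 240, the highest, was also the 1 with heart muscle transcripts. Without it, the change of TTN against controls was 1.73 on the log2 scale and was not called (adjusted p = 0.0538 by limma). The call of APOC1 at 5 d was lost when any 1 of animals 240, 242 and 092 was left out, with log2 changes of 2.11 to 2.26 (adjusted p = 0.0618 to 0.0756 by limma).

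**Figure D5:**
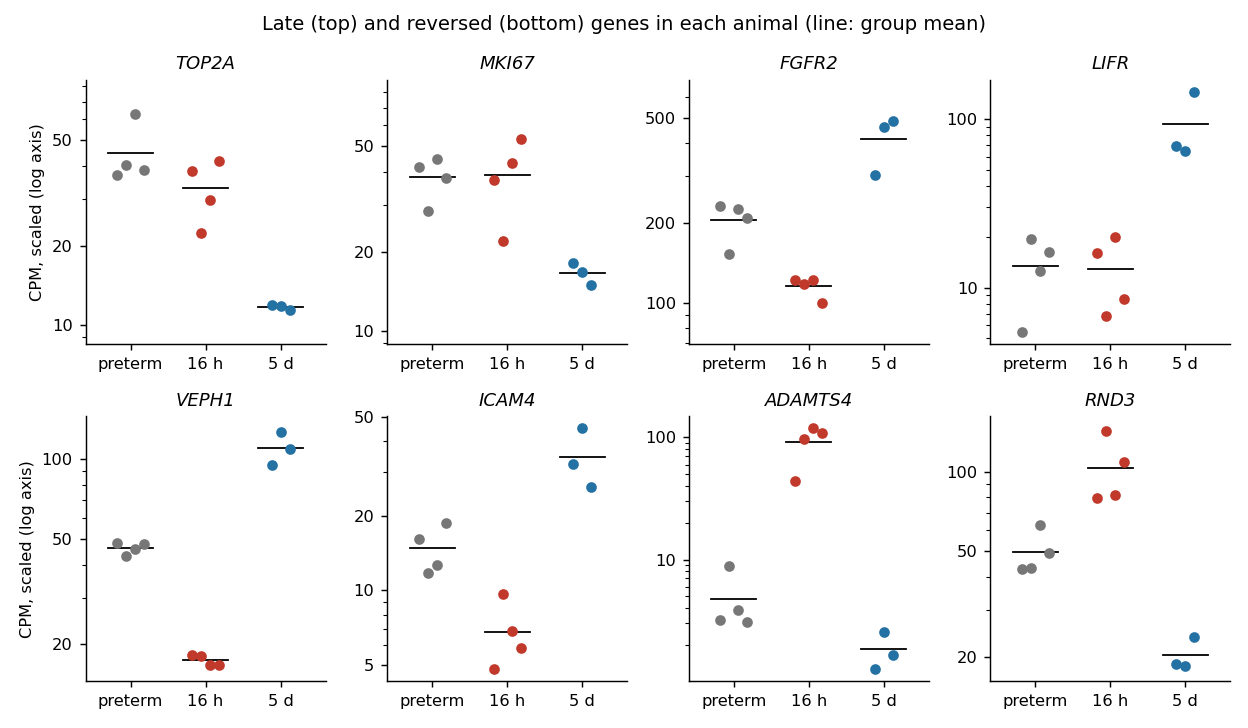
Level of 4 late genes (upper row) and 4 reversed genes (lower row) in each animal (points, CPM on a log axis) in preterm controls, at 16 h and at 5 d, with a line at the group mean. TOP2A and MKI67 drop and FGFR2 and LIFR rise at 5 d alone, VEPH1 and ICAM4 lie below the controls at 16 h and above them at 5 d, and ADAMTS4 and RND3 do the opposite.

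The 25 reversed genes were few and mostly close to the limit of the calls. VEPH1, a membrane-associated protein with a pleckstrin homology domain, was the 1 of them that stayed reversed in all 18 alternative settings. It was at 18.1, 18, 16.7 and 16.7 CPM at 16 h, 95.1, 127 and 109.6 CPM at 5 d and 48.4, 43.1, 45.8 and 47.8 CPM in controls. The 3 groups did not overlap, and the log2 changes against controls were -1.41 (SE 0.11, adjusted p = 1.09e-07 by limma) and 1.25 (SE 0.12, adjusted p = 7.2e-05 by limma). ICAM4, an adhesion molecule first known from red cells, was at 4.83, 9.71, 6.84 and 5.87 CPM, 32.5, 45 and 26.1 CPM and 16.1, 11.8, 12.7 and 18.6 CPM, and ANOS1, the secreted matrix protein anosmin, at 19.2, 11.9, 25.1 and 23.8 CPM, 81.6, 86.8 and 161 CPM and 33.3, 40.4, 58 and 59.7 CPM. Each of these was reversed in 16 of the 18 settings. FXYD3, a regulator of the sodium pump, was at 4.97, 16.2, 4.94 and 4.01 CPM at 16 h, where animal 029 lay just below the controls, 40.7, 53 and 54.7 CPM at 5 d and 17.6, 16.6, 17.4 and 32.1 CPM in controls, and held in 10 settings. PPP2R2B and ALDH1L1 held in 14 settings each. RAB17, a small GTPase of epithelial transport, held in 6. Outside the rule for naming, and picked after their values were seen, PKHD1, which encodes the ciliary protein fibrocystin, held in 15 and the epithelial kinase gene PTK6 in 5. The muscle genes SBK2, MYL3 and MYBPHL, the last 2 also picked after their values were seen, went from lower to higher as well, and in the LPS 5d animals SBK2 was at 6.94, 9.64 and 7.84 CPM and MYL3 at 9.12, 11.9 and 9.6 CPM. Animal 240 was highest in both by less than 2-fold. The call of SBK2 at 5 d was lost without animal 240 (log2 1.03, adjusted p = 0.138 by limma). It was also lost without animal 239 or 242 (adjusted p = 0.0664 and 0.0918 by limma). The part of the heart muscle transcripts of animal 240 in these calls was not tested.

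In the opposite direction, ADAMTS4, an aggrecan-cleaving protease, changed most between the times. It was at 44.3, 98, 119 and 109 CPM at 16 h, 1.27, 2.57 and 1.66 CPM at 5 d and 3.18, 8.85, 3.83 and 3.06 CPM in controls, which gave log2 changes of 4.32 (SE 0.36) and -1.24 (SE 0.39), and it held as reversed in 8 of the 18 settings. RND3, a small GTPase that opposes contraction, was at 79.6, 142, 81.7 and 109 CPM, 18.7, 18.4 and 23.8 CPM and 42.7, 43.1, 63 and 49.3 CPM, and held in 15. KCNJ2, an inward rectifier potassium channel, was at 52, 30.9, 39.8 and 46.6 CPM, 3.96, 5.22 and 8.7 CPM and 14, 11.9, 15.2 and 8.93 CPM, and held in 16. RBP4, the plasma carrier of retinol, was at 4.08, 3.38, 4.24 and 3.4 CPM, 0.29, 0.614 and 0.19 CPM and 1.92, 1.48, 1.46 and 2.48 CPM, so that all 3 LPS 5d animals were below 0.615 CPM. B3GNT5, MYH1, ELOVL2, CD69, an early activation marker of lymphocytes, and CENPE, a mitotic kinesin, were the remaining 5 of 9, CD69 being outside the rule for naming. By limma-voom the calls at 5 d were lost for MYH1, ELOVL2 and CENPE (adjusted p = 0.271, 0.12 and 0.0626). That of B3GNT5 was lost without animal 240 (adjusted p = 0.085 by limma). CENPE was the 1 proliferation gene called higher than controls at 16 h, at 26.8, 8.35, 11 and 16.9 CPM against 5.36, 7.46, 9.76 and 6.01 CPM, with animal 029 inside the range of the controls. Its rise at 16 h came under the 2-fold limit without animal 026 (log2 0.75), by limma-voom (log2 0.99) and in other settings.

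The remaining lists were called in part. Of 21 lymphocyte genes, GZMB persisted, CCR7 resolved, CD3D was called at 16 h alone, and IL7R and GZMK changed between the times alone. Among 21 endothelial genes, GJA5, a connexin of arterial endothelium, fell and resolved, APLNR, KDR and SOX17 were lower at 16 h alone (with GJA5, 4 of 21 lower at 16 h against 6.11% of all genes), and VWF, PECAM1, CDH5 and CLDN5 were not called in any of the 3 comparisons. Of 14 smooth muscle and pericyte genes, DES rose and resolved. In this list 2 were lower at 16 h and 1 at 5 d, against 6.11% and 2.23% of all genes. Their summed level was 3177 to 3799 CPM in controls, 2555 to 2805 CPM at 16 h and 2149 to 2223 CPM at 5 d, without overlap. No gene of 13 for motile cilia was called, against 14.6% of all genes between the times and 14.4% and 4.83% against controls at 16 h and 5 d. Their summed level spread widely within controls, from 52 to 421.5 CPM. In the erythroid list, 6 of 10 genes were lower at 5 d than at 16 h, against 7.93% of all genes, with summed levels of 28.04 to 104.4 CPM in controls, 54.75 to 146.6 CPM at 16 h and 16.45 to 52.98 CPM at 5 d that overlapped between controls and both times. Of 12 glucocorticoid targets, 4 were higher at 16 h, against 8.25% of all genes. FKBP5, CRISPLD2 and ERRFI1 rose and resolved, HSD11B2, which inactivates cortisol, fell and resolved, and ZBTB16 persisted. TSC22D3, PER1 and KLF9, also of this list, were not called. Among the other lists, CALCA of the neuroendocrine list and LRRN4 of the mesothelial list rose and resolved, UPK3B of the latter fell and resolved, and ACAN of the cartilage list was late and lower.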

How the data were processed

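Left lung was snap-frozen at delivery, and the authors made 75 bp paired-end poly(A) libraries, estimated transcript abundance with kallisto on Mmul_10, summed it to genes with tximport and tested it with DESeq2 (versions are not stated). The authors deposited 1 table of 22515 genes by 16 animals. Its values are whole numbers with a total of their own for each animal, as counts are, but the table's layout did not allow this unit to be checked. No count model was therefore run, and limma on log2 values, the planned main design, stands alone.

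Symbols came from a table of Ensembl identifiers (17256 identifiers matched and 5259 did not, with 66 symbols on several identifiers). Values were scaled by trimmed means (30% of log ratios and 5% of levels trimmed) and taken to the log2 scale as CPM, with 2 as the prior count. The 19199 genes with at least 0.371 CPM in 2 animals and a total of at least 15 were fitted with limma 3.58.1 (R 4.3.3, trend and robust variance) with a mean for each of 5 groups and no covariate. P-values were adjusted by Benjamini-Hochberg over all of them. They set the difference between group means against the spread between animals within groups, estimated over all 5 groups.

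The 27 gene lists (554 genes, 525 matched, 513 tested), the classes and the genes shown were chosen with earlier results of these data known. Named genes were, per class and direction, up to 8 genes with a symbol, at least 4 counts on average in each group and no overlap between the groups told apart by a call. Resolved and late genes were ranked by the change between the times, persisting and reversed genes by the smaller change against controls. Genes of the lists and of the study's main questions were named besides these. Heart muscle genes were listed after the values were seen. The code was tested on simulated data. Alternatives were other scaling, no filter, limma-voom, a prior count of 0.5, fewer groups, gestational age as a covariate, no fold limit, leaving out each animal and, added after seeing the data, thinning libraries to the smallest total. No genome of this build was used, so no coordinates are given. Some genes that met these rules are not reported here.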

Additional observations from a re-analysis of the deposited data

Results flagged for a closer look

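Single animals that stood apart from their group of 4 were looked for among the genes and list sums shown, by the gap to the nearest animal as a share of the group's range (critical value 0.829). Of 222 groups tested 21 were past it, and chance gives about 1 in 20. Among preterm controls, animal 113 was highest in IL6 (0.919), S100A9 (0.885) and TOP2A (0.832) and lowest in MT1X (0.841). Animal 209 was highest in CD14 (0.857), ELN (0.833) and FXYD3 (0.914) and lowest in the summed p53 targets (0.884), and animal 092 was highest in NFKBIA (0.937).

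At 16 h, animal 029 was highest in WNT7A (0.837), APOC1 (0.833) and FXYD3 (0.847) and in the sums of immediate early genes (0.843), lung growth factor signalling (0.91) and airway cartilage (0.858), and lowest on the second principal component (0.908). Animal 038 was highest in TNFAIP3 (0.924) and in the summed p53 targets (0.829), animal 035 in the summed neutrophil genes (0.872), and animal 026 was lowest in ARRDC3 (0.867) and in the summed NF-kB genes (0.926).

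The 25 reversed genes differed between the times by their definition. The log2 differences of those named, LPS 5d minus LPS 16h, were -4.15 for MYH1, -5.57 for ADAMTS4, -2.86 for KCNJ2, -2.37 for B3GNT5, -2.31 for ELOVL2, -3.26 for RBP4 and -2.31 for RND3. In the other direction they were 3.32 for PPP2R2B, 2.97 for ALDH1L1, 2.94 for FXYD3, 2.65 for VEPH1, 2.44 for ANOS1, 2.34 for ICAM4, 2.36 for SBK2 and 2.4 for RAB17.

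Outside the comparisons, the Y-linked gene DDX3Y was at 2.83 CPM, unscaled, in animal 035 of the LPS 16h group, between the 0.0386 to 0.427 CPM of 3 and the 149 to 265 CPM of 7 of the other 10 animals compared here. Among the LPS and Beta-Ac animals, which were not compared here, 1 was also at a low level, 1.68 CPM. Heart muscle genes summed to 1330 CPM in animal 240 of the LPS 5d group, and their part in the 5 d results beyond those recomputed without this animal was not tested.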

How the results depend on the processing

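The 2-fold limit mattered most. Without it, 6733 genes were called between the times, 7385 at 16 h and 2825 at 5 d against controls, of which 3801 resolved, 1346 persisted, 281 reversed and 880 were late. All other alternatives left the counts of calls and of resolved and persisting genes within 1.5 times, and no direction of a called gene was reversed among the genes followed. With gestational age as a covariate 1465 genes resolved (1240 of them resolved without it), 430 persisted (321), 17 reversed (12) and 217 were late (171). With libraries thinned to the smallest total, an alternative chosen after seeing the data, these counts were 1486 (1406), 373 (355), 21 (17) and 239 (213), and by limma-voom 1596 (1483), 321 (308), 21 (19) and 224 (215).

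With each animal left out in turn, 2561 to 2991 genes were called between the times, 2447 to 2927 at 16 h and 647 to 1149 at 5 d, and 1358 to 1672 resolved, 295 to 497 persisted, 10 to 33 reversed and 155 to 275 were late. Reversed genes fell to 15 without animal 239, 11 without 240, 15 without 092, 14 without 101 and 10 without 113, and late genes to 155 without 240. The causes were not tested. Over 18 settings with the 2-fold limit, 922 of 1523 resolved genes (60.5%), 168 of 380 persisting (44.2%), 73 of 241 late (30.3%) and 1 of 25 reversed (4%) kept their class throughout. No paired analysis was possible because the labels give each animal a number of its own. With 3 or 4 animals a group and 20169363 to 48052891 counts a library, genes of a few counts in controls allow no fold change.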
